A study of Mus musculus with 6 samples.

Results

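The 10 genes H2-K1, H2-D1, H2-T23, H2-M2, B2m, Tap1, Tap2, Psmb8, Psmb9 and Psmb10 belong to class I antigen presentation and the immunoproteasome, here measured in mouse liver. They were taken by symbol from the 23036 rows of the deposited table, and all 10 were found. Bulk RNA-seq was made from livers of female mice on a western diet for 20 weeks, begun at 8 weeks of age. The mice carried floxed Hkdc1 (HKDC1 fl/fl, here flox) or had Hkdc1 deleted in the liver (HKDC1 LKO), and the study asks how this hexokinase-family gene bears on fatty liver disease (MASH). Every library therefore came from an animal on the western diet, and no other diet was analysed here. The sources used here name neither the Cre driver nor the deleted exons.

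The genotype field names 3 flox and 3 LKO libraries, but for 2 of them the title says the opposite. The library labelled flox 3 is titled LKO, and the library labelled LKO 1 is titled flox. Each comparison was therefore made on the 4 libraries whose labels agree (flox 1, flox 2, LKO 2 and LKO 3), on the title groups (flox 1, flox 2 and LKO 1 against flox 3, LKO 2 and LKO 3) and on the genotype field. Hkdc1, the targeted gene, had 49, 22 and 1 counts in flox 1 to 3 and 10, 1 and 4 counts in LKO 1 to 3. The level in the library labelled flox 3 went against its genotype field. Library totals were 16166515 to 17366295 counts. Hepatocyte markers were abundant in every library, with a summed level of 61895 to 91834 CPM (counts scaled to a common library size with TMM). Markers of adrenal cortex summed to 2059 CPM in LKO 2 and 221 CPM in LKO 3, against 6.16 to 9.57 CPM in the other 4 libraries, with 4 of the 6 markers at 0 in at least 1 library. Adipocyte markers were also highest in LKO 2 and LKO 3, at 54.7 and 7.41 CPM against 0.178 to 1.18 CPM. Fewer cells of a type and less RNA per cell cannot be told apart in such tissue.

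Class I molecules show peptides from inside the cell to CD8 T cells and natural killer cells. A heavy chain, here the classical H2-K1 and H2-D1 or the nonclassical H2-T23 and H2-M2, pairs with beta-2-microglobulin (B2m). Peptides are cut by proteasomes and pumped into the endoplasmic reticulum by the transporter made of Tap1 and Tap2. Interferon gamma induces the immunoproteasome, in which Psmb8, Psmb9 and Psmb10 take the places of the constitutive catalytic subunits Psmb5, Psmb6 and Psmb7. The promoters of classical class I genes carry a kappa B site and an SXY module, whose Y box binds NF-Y and which recruits the transactivator NLRC5.

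Promoter windows of 300 bases, from 250 before to 50 after the RefSeq start on GRCm38.p6, were available for 9 of the 10 genes, with 2 windows for H2-K1. Tap2 was not matched. Shown are the windows of both classical heavy chains and of their light chain, whose levels were high in every library. Also shown is that of H2-M2, the member called lower in LKO in the libraries whose labels agree. The Tap1 window is added because it is shared with Psmb9. Capitals mark, on either strand, the Y box (CCAAT), the core of the cyclic AMP element (TGACG), the kappa B palindrome (GGGATTCCC), the gamma-activated site (TTC, any 3 bases, GAA) and the core of the interferon-stimulated response element (GAAA, any 2 bases, GAAA).
H2-K1, chr17:34000284-34000583, minus strand: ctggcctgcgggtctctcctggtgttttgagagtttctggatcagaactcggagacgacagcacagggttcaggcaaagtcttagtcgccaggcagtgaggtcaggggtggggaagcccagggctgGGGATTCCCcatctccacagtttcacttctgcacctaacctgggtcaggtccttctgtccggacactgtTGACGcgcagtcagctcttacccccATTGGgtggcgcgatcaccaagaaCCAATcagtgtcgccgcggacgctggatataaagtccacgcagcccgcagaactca
H2-D1, chr17:35262844-35263143, plus strand: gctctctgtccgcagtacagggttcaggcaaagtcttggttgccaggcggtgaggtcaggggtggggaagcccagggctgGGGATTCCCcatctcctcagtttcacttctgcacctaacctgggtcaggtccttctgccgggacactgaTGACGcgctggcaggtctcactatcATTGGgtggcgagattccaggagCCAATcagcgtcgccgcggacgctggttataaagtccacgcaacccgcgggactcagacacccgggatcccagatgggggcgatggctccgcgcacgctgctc
B2m, chr2:122147437-122147736, plus strand: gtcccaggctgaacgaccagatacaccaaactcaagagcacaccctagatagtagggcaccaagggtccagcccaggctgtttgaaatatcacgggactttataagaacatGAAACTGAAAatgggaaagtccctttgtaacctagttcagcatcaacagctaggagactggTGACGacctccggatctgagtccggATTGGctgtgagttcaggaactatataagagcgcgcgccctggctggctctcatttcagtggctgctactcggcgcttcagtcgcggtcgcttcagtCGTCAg
H2-M2, chr17:37483505-37483804, minus strand: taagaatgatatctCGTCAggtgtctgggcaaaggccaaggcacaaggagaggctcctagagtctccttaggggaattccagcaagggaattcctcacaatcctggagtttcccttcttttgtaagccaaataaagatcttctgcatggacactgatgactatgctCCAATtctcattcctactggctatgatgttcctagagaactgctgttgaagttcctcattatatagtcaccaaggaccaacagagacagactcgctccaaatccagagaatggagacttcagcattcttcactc
Tap1, chr17:34187306-34187605, plus strand: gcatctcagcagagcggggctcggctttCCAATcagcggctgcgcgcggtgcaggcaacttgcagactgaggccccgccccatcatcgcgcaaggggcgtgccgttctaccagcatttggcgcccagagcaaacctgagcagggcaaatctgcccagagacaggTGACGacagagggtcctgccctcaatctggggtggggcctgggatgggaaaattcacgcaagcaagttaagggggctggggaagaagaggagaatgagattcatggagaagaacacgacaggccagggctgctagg

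The kappa B palindrome was present in the windows of H2-K1 and H2-D1 and in no other matched member. It occurs in 0.353% of 32851 RefSeq mouse promoter windows of this length. TGACG followed by any 20 bases and ATTGG was present in H2-K1, H2-D1 and B2m, and in 31 of all windows (0.0944%). This spacing was searched after the separate matches had been seen. The H2-M2 window held neither. Its matches were CCAAT at -84 to -80 and CGTCA at -236 to -232 from the start, motifs found in 37.4% and 20.8% of all windows. The interferon-stimulated core was present in B2m, at -139 to -130, and in H2-T23, at -124 to -115, against 3.44% of all windows. Psmb8 held the gamma-activated site, as did 8.30% of all windows, and the Psmb10 window held none of these motifs. The Tap1 and Psmb9 windows overlap by 275 bases because the genes are read away from each other from starts with 225 bases between them. A match is a run of letters, not a bound site, and no match says only that the letters are not in that window.

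The classical heavy chains and their light chain were among the abundant transcripts of these livers and differed little between libraries. H2-K1 (chromosome 17, 34214991 to 34219321, minus strand, GRCm39, as in the deposited table) had 1617, 1793 and 1789 CPM in flox 1 to 3 and 2070, 1780 and 1875 CPM in LKO 1 to 3. The highest library was 1.28 times the lowest, and the groups overlapped under every reading of the labels. H2-D1 (chromosome 17, 35481706 to 35486475, plus strand) had 986, 990.2 and 837 CPM in flox 1 to 3 and 937, 863 and 833 CPM in LKO 1 to 3. In the 4 agreeing libraries both LKO values lay below both flox values. B2m (chromosome 2, 121978167 to 121983564, plus strand) had 1454, 1421 and 1201 CPM in flox 1 to 3 and 1276, 1175 and 1352 CPM in LKO 1 to 3. Its LKO values also lay below the flox values in the agreeing libraries, and not when all 6 libraries were used. Per length, the mean over the 6 libraries was 1535 FPKM for B2m, 619 for H2-K1 and 354 for H2-D1.

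The nonclassical heavy chains had the narrowest and the widest spread of the 10 genes. H2-T23 (chromosome 17, 36340665 to 36343747, minus strand) encodes Qa-1, which presents leader peptides of other class I chains to natural killer cell receptors. Its level was 270.2, 274 and 271 CPM in flox 1 to 3 and 266, 272 and 266 CPM in LKO 1 to 3. The highest library was 1.03 times the lowest, the smallest log2 range (0.05) of the 10427 genes with a mean of at least 5 CPM, where the median range was 0.51. Its coefficient of variation was 1.25%, against 1.49% from counting error alone. H2-M2 (chromosome 17, 37791742 to 37794443, minus strand) is a nonclassical gene at the distal end of the same complex. It had 173, 122 and 17 counts in flox 1 to 3 and 62, 4 and 6 counts in LKO 1 to 3. These correspond to 8.95, 7.55 and 1.10 CPM in flox 1 to 3 and 3.67, 0.241 and 0.380 CPM in LKO 1 to 3. LKO 2 and LKO 3 were lowest and flox 1 and flox 2 highest, with the library labelled LKO 1 but titled flox next and the library labelled flox 3 but titled LKO below it. The 95% Poisson interval, which covers counting error only, was 101 to 146 counts in flox 2 and 2.20 to 13.1 counts in LKO 3. H2-M2 spanned 37.1-fold in CPM. Its log2 range, damped by a prior count of 2 like the other ranges, was 4.65, wider than that of 99.5% of the same 10427 genes. With a mean of 3.65 CPM, H2-M2 is itself below the cut for those genes, so it was ranked against better-measured ones. Of the FPKM summed over the 4 heavy chains, H2-K1 held 53.3% to 60.6%, H2-D1 30.7% to 37.0%, H2-T23 7.91% to 9.13% and H2-M2 0.015% to 0.559%.

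**Figure D1:**
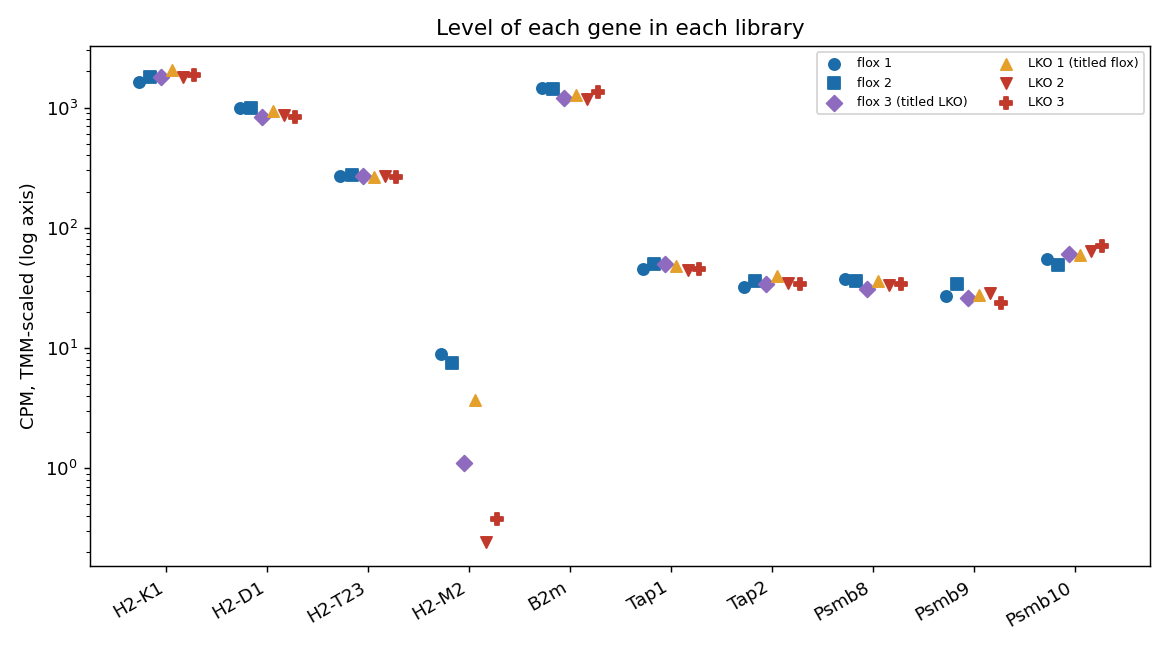
Level of each of the 10 genes in each of the 6 libraries, in TMM-scaled CPM on a log axis, with 1 symbol per library and no averaging. H2-M2 runs from 0.241 CPM in LKO 2 to 8.95 CPM in flox 1, while each of the other 9 genes spans at most 1.45 times.

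The peptide transporter and the immunoproteasome were expressed at lower levels per length than the classical chains, and each gene spanned at most 1.45 times between libraries. Tap1 (chromosome 17, 34406527 to 34416199, plus strand) had 45.6, 49.7 and 49.7 CPM in flox 1 to 3 and 48.2, 44.9 and 45.2 CPM in LKO 1 to 3. Tap2 (chromosome 17, 34422501 to 34435295, plus strand) had 32.2, 36.3 and 34.0 CPM in flox 1 to 3 and 39.4, 35.0 and 34.3 CPM in LKO 1 to 3. The transporter subunits had similar levels per length, 8.64 and 9.31 FPKM, and their ratio was 0.844 to 1.01 in the 6 libraries. Psmb8 (chromosome 17, 34416695 to 34420428, plus strand) had 37.8, 36.3 and 31.0 CPM in flox 1 to 3 and 36.4, 33.7 and 34.3 CPM in LKO 1 to 3. Psmb9 (chromosome 17, 34400961 to 34406738, minus strand) had 27.3, 34.0 and 26.3 CPM in flox 1 to 3 and 27.8, 28.8 and 23.4 CPM in LKO 1 to 3. Flox 2 was the highest and LKO 3 the lowest library for Psmb9, and the groups overlapped under every reading. Psmb10 (chromosome 8, 106662367 to 106665076, minus strand) had 55.0, 49.1 and 60.3 CPM in flox 1 to 3 and 59.5, 64.3 and 70.8 CPM in LKO 1 to 3. It was the 1 member whose LKO values both lay above the flox values in the agreeing libraries. Mean levels per length were 10.4 FPKM for Psmb8, 7.66 for Psmb9 and 35.0 for Psmb10. Psmb9 and Psmb10 spanned a log2 range of 0.53 each, close to the median gene.

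In the 4 agreeing libraries, H2-M2 fell in LKO and the other 9 members did not pass the test. All 10 passed the filter on low counts. The mean level of H2-M2 was 8.25 ± 0.990 CPM in the flox pair and 0.311 ± 0.0983 CPM in the LKO pair (SD, n = 2 each). This was a log2 fold change of -4.70 (SE 0.39, 95% interval -5.66 to -3.75, edgeR quasi-likelihood test, Benjamini-Hochberg adjusted p = 0.0176). In this comparison 0.622% of the 14626 genes tested were called, 0.492% as lower and 0.13% as higher in LKO, against 1 of the 10 members. Without flox 1 the adjusted p of H2-M2 was 0.0897, and without flox 2 it was 0.0508, with log2 fold changes of -4.57 and -4.83 and 0 members called.

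The intervals of the other 9 members lay between -0.69 and 0.72 on the log2 scale, above that of H2-M2. H2-K1 had a log2 fold change of 0.10 (95% interval -0.41 to 0.62), H2-D1 of -0.22 (-0.67 to 0.23) and B2m of -0.18 (-0.69 to 0.32). H2-T23 was at -0.02 (-0.39 to 0.36), Tap1 at -0.08 (-0.38 to 0.23) and Tap2 at 0.02 (-0.29 to 0.33). With scaling by library size alone, H2-K1 was at -0.03 and Tap2 at -0.11, so no direction is given for either. Psmb8 was at -0.12 (-0.40 to 0.17) and Psmb9 at -0.22 (-0.65 to 0.20). Psmb10, at 0.38 (SE 0.14, 0.04 to 0.72), was the only one of these 9 with an unadjusted p under 0.05 (0.0343, edgeR adjusted p = 0.259), as were 16.6% of all genes. LKO lay below flox without overlap for 5 members, H2-D1, H2-M2, B2m, Tap1 and Psmb8, above it for Psmb10, and overlapped for 4. With 2 libraries a group, 49.2% of all genes tested did not overlap either (25.3% with LKO below, 24% with LKO above), so these counts single out no member. The members' median log2 fold change was -0.10, against 0.005 over all genes tested.

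The other readings of the labels gave H2-M2 the same sign, and in edgeR with all 6 libraries and the usual filter no member passed the threshold. Between the title groups the mean level of H2-M2 was 6.72 ± 2.73 CPM in the libraries titled flox and 0.575 ± 0.463 CPM in those titled LKO (SD, n = 3 each). The log2 fold change was -3.55 (SE 0.56, 95% interval -4.84 to -2.26, edgeR adjusted p = 0.0517). The title groups did not overlap for H2-M2, H2-D1 and Psmb8 (LKO below) and for Psmb10 (LKO above), and overlapped for the other 6 members, while 19% of all genes did not overlap (10.4% below, 8.61% above). By edgeR 0 of the 10 members were called, against 0.356% of 14310 genes (0.3% lower, 0.0559% higher), and 1 had an unadjusted p under 0.05, against 13.9%. H2-M2 was called by DESeq2 (adjusted p = 3.85e-08), and no member was called by limma-voom or limma-trend. H2-M2 also passed in edgeR with no filter on low counts (adjusted p = 0.00809), without the library labelled flox 3 (adjusted p = 0.0490) and without the library labelled LKO 1 (adjusted p = 0.0301). By the genotype field the log2 fold change was -2.03 (95% interval -4.47 to 0.42, edgeR adjusted p = 0.576) and all 10 members overlapped between groups, as did most genes (14.3% did not, 6.87% with LKO below and 7.47% with LKO above). There 0 members were called by edgeR, DESeq2, limma-voom or limma-trend, 0 had an unadjusted p under 0.05 in edgeR, against 8.87% of all genes, and edgeR called 0% of all genes. The other 9 members had log2 fold changes of -0.20 to 0.25 by title and -0.13 to 0.24 by genotype field.

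**Figure D2:**
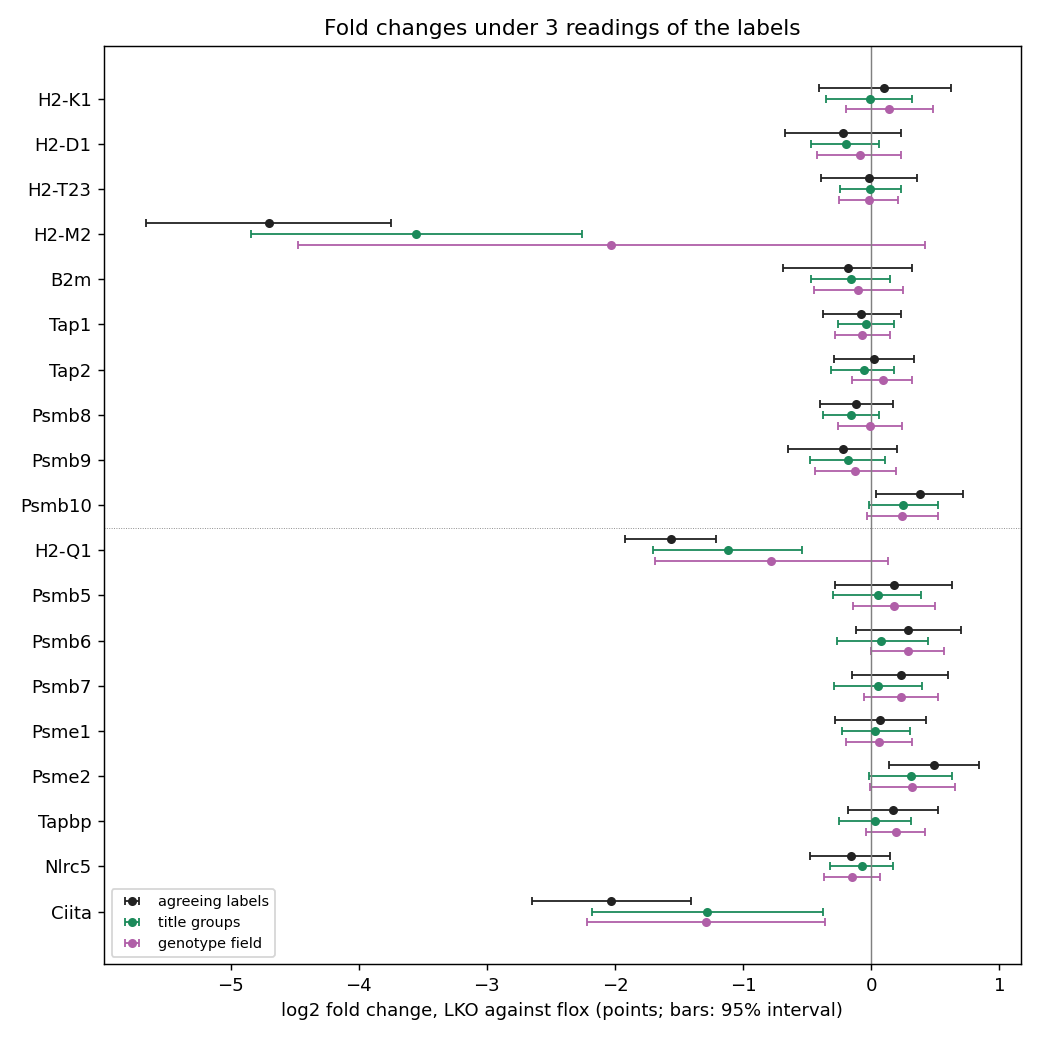
Log2 fold change of LKO against flox, with 95% intervals, for the 10 genes (above the dotted line) and 9 related genes, under 3 readings of the labels. H2-M2 is at -4.70, -3.55 and -2.03, while the intervals of the other 9 members lie between -0.69 and 0.72 under every reading.

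The summed markers of some other cell types were also lower in LKO 2 and LKO 3 than in flox 1 and flox 2, though single genes carried much of some sums. T cell markers summed to 20.7, 14.4 and 11.0 CPM in flox 1 to 3 and 15.3, 7.72 and 6.08 CPM in LKO 1 to 3, and 1 of the 8, Cd8b1, was at 0 in LKO 3. Without Themis, the most abundant of them, the other 7 summed to 13.7 and 7.61 CPM in flox 1 and flox 2 and to 7.35 and 5.51 CPM in LKO 2 and LKO 3. Dendritic cell markers summed to 56.6, 33.4 and 17.1 CPM in flox 1 to 3 and 22.4, 19.4 and 15.1 CPM in LKO 1 to 3. Without Itgax, which macrophages also express, the other 4 summed to 13.7, 11.1 and 9.08 CPM in flox 1 to 3 and to 7.82, 8.08 and 8.87 CPM in LKO 1 to 3. Cholangiocyte markers summed to 465, 355 and 77.5 CPM in flox 1 to 3 and 166, 32.8 and 59.7 CPM in LKO 1 to 3. Without Spp1 the other 4 summed to 37.1 and 20.0 CPM in flox 1 and flox 2 and to 6.27 and 7.03 CPM in LKO 2 and LKO 3. In the agreeing libraries 1 of 7 T cell markers tested (Themis), 1 of 5 cholangiocyte markers (Spp1) and 0 of 4 dendritic cell markers passed as lower. In edgeR an unadjusted p under 0.05 was found for 2 of these T cell, 5 cholangiocyte and 2 dendritic cell markers, against 16.6% of all genes tested. Macrophage and monocyte markers summed to 574 to 921 CPM in flox 1 and 2 and to 344 to 647 CPM in LKO 2 and 3, which overlapped, and 0 of 7 passed. Single markers of this list differed more than the sum. Their median log2 fold change was -0.97 (range -3.14 to 0.61), 5 of the 7 were below 0 and 4 had an unadjusted p under 0.05. Stellate cell markers (441 to 570 CPM in the flox pair, 272 to 302 CPM in the LKO pair) did not overlap, and 0 of 5 passed, with 3 at an unadjusted p under 0.05. Pan-leukocyte (180.4 to 279 and 126 to 221 CPM), B cell (8.17 to 20.3 and 5.32 to 9.40 CPM), natural killer cell (4.58 to 8.64 and 4.63 to 5.55 CPM), Kupffer cell (536 to 627 and 555 to 787 CPM) and endothelial markers (301 to 334 and 321 to 348 CPM) overlapped, and none of those tested passed. In that order 1 of 5, 2 of 4, 0 of 2, 2 of 5 and 3 of 5 had an unadjusted p under 0.05, in either direction. Hepatocyte markers did not overlap either, with LKO higher (61895 to 70782 CPM in the flox pair and 84240 to 88757 CPM in the LKO pair), and 0 of 6 passed by edgeR. Between these pairs 49.2% of all single genes tested did not overlap (25.3% with LKO below, 24% with LKO above). No such share was computed for sums, so the separation of a sum singles out no cell type. Adrenal cortex and adipocyte markers gave 0 calls by edgeR in the agreeing libraries. All 6 adrenal cortex and 3 adipocyte markers tested there had an unadjusted p under 0.05, against 16.6% of all genes tested. The medians of these markers were 9.66 and 9.77 on the log2 scale, higher in LKO 2 and LKO 3. The 4 other libraries had adrenal cortex markers under 10 CPM, and of these the library labelled flox 3 had the lowest H2-M2. The part of these cells, and of the adrenal and fat transcripts of LKO 2 and LKO 3, in the H2-M2 result was not tested.

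The genes whose pattern over the 6 libraries was most like that of H2-M2 were found by the root mean square difference of centred log2 CPM, among 10427 genes. They were Pls1 (0.435), Fam83a (0.445), Ccdc120 (0.484), Spp1 (0.484) and Gpnmb (0.516). Pls1 encodes the actin bundler plastin 1, Spp1 the secreted protein osteopontin and Gpnmb a transmembrane glycoprotein of macrophages. For H2-K1 the nearest of 10426 genes were Adprm (0.023), Psme4 (0.024), Ints4 (0.029), Skiv2l (0.029) and Bcl2l2 (0.030). Psme4 encodes a proteasome activator. For Psmb8 they were Capza2 (0.023), Ttc27 (0.026), Ptk2 (0.032), Tdrd7 (0.033) and Fkbp3 (0.034). No other member was among these 15 genes. The distances around H2-K1 and Psmb8 were far smaller than those around H2-M2, and the spread of H2-K1 and Psmb8 between libraries was narrower too.

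Among 21 other class I chains in the table, 17 were tested in the agreeing libraries and 1 fell. That gene, H2-Q1, a nonclassical chain of the Q region, had 57.0, 67.3 and 40.2 CPM in flox 1 to 3 and 53.6, 19.8 and 22.2 CPM in LKO 1 to 3. LKO 2 and LKO 3 lay below all other libraries, though in the agreeing libraries 25.3% of all genes tested also had LKO below flox. Among the agreeing libraries H2-Q1 was at -1.56 on the log2 scale (SE 0.15, 95% interval -1.92 to -1.21, edgeR adjusted p = 0.0201), with adjusted p = 0.0699 without flox 1 and 0.0537 without flox 2. By title it was at -1.12 (edgeR adjusted p = 0.117) and by genotype field at -0.78 (edgeR adjusted p = 0.568). By title it passed with DESeq2 (adjusted p = 0.00154), with no filter on low counts (edgeR adjusted p = 0.0391) and without the library labelled flox 3 (edgeR adjusted p = 0.0449). Among the same libraries H2-Q2 was at -2.04 (SE 0.89, edgeR adjusted p = 0.327). The median of the 17 genes was -0.21, and the summed level of the list was 3086 to 4184 CPM in flox and 3818 to 4159 CPM in LKO. Class I heavy chains are near-identical in places, so reads can be split between copies and each heavy-chain level is uncertain to that extent.

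Of the genes that load and trim class I peptides, 0 of 12 passed in the agreeing libraries by edgeR. Among them 0 had an unadjusted p under 0.05, against 16.6% of all genes tested. The median of the 12 was 0.11. Tapbp, the chaperone that bridges heavy chain and transporter, was at 0.17, the peptidase gene Blmh at 0.31 (edgeR adjusted p = 0.334) and the chaperone gene Calr at 0.37 (edgeR adjusted p = 0.389). Of 8 constitutive proteasome and activator genes 0 passed, and the median was 0.20. Among them 1 had an unadjusted p under 0.05, against the same 16.6%. That gene was Psme2, a subunit of the interferon-inducible proteasome activator, at 0.49 (SE 0.14, edgeR adjusted p = 0.186), while its partner Psme1 was at 0.07. Pomp, which helps assemble proteasomes, was at 0.32 (edgeR adjusted p = 0.373). Psmb5, Psmb6 and Psmb7 were at 0.18, 0.29 and 0.23.

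The FPKM of each immunoproteasome subunit was set against that of the subunit it replaces. Psmb8/Psmb5 was 0.146, 0.104 and 0.0959 for flox 1 to 3, and 0.0992, 0.105 and 0.0946 for LKO 1 to 3. Psmb9/Psmb6 was 0.170, 0.176 and 0.138 for flox 1 to 3, and 0.120, 0.145 and 0.101 for LKO 1 to 3. In the agreeing libraries both LKO values of Psmb9/Psmb6 lay below both flox values, and those of Psmb8/Psmb5 overlapped. With 2 libraries a group, 49.2% of single genes tested did not overlap either, and no such share was computed for ratios. With all 6 libraries Psmb9/Psmb6 overlapped between groups by title and by genotype field. Psmb10/Psmb7 was 2.22, 1.59 and 1.92 for flox 1 to 3, and 1.60, 1.98 and 2.19 for LKO 1 to 3, with overlap. Psmb8 and Psmb9 were below their counterparts in every library, per length and in raw counts. Implied lengths were 3381 bases for Psmb8 against 899 for Psmb5, and 3660 for Psmb9 against 1872 for Psmb6. Raw counts therefore differed less than FPKM. In flox 1 they were 730 for Psmb8 against 1327 for Psmb5, and 527 for Psmb9 against 1586 for Psmb6. Psmb10 was above Psmb7 per length, with implied lengths of 1705 and 3421 bases. In raw counts it was below Psmb7 in flox 2 (794 against 1002), flox 3 (929 against 973), LKO 1 (1004 against 1256) and LKO 2 (1067 against 1082), and above it in flox 1 (1063 against 961) and LKO 3 (1118 against 1026). The ratios are of transcripts per length and rest on the 1 length per gene that the deposited FPKM uses.

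**Figure D3:**
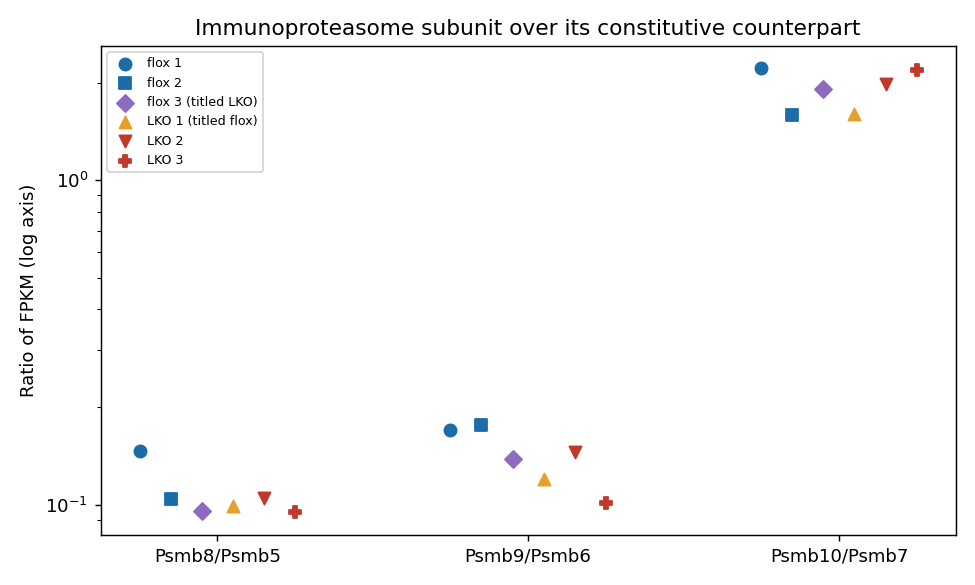
Ratio of the FPKM of each immunoproteasome subunit to its constitutive counterpart, on a log axis, with 1 symbol per library. Psmb8/Psmb5 and Psmb9/Psmb6 stay between 0.0946 and 0.176 and Psmb10/Psmb7 between 1.59 and 2.22.

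Of the transactivators of class I and class II genes, the class II one passed the test. Nlrc5, the transactivator of class I genes, was at -0.16 (SE 0.13, edgeR adjusted p = 0.585) among the agreeing libraries. Ciita, the transactivator of class II genes, had 17.7, 12.9 and 8.82 CPM in flox 1 to 3 and 8.65, 3.98 and 3.48 CPM in LKO 1 to 3. LKO 2 and LKO 3 lay below all other libraries, though in the agreeing libraries 25.3% of all genes tested also had LKO below flox. By title the groups overlapped for Ciita. In the agreeing comparison Ciita fell by 2.03 on the log2 scale (SE 0.25, edgeR adjusted p = 0.0422). The call was lost without flox 1 (adjusted p = 0.188) and without flox 2 (adjusted p = 0.0577). By title and by genotype field Ciita was at -1.28 and -1.29 (edgeR adjusted p = 0.201 and 0.554), and by title it passed with DESeq2 (adjusted p = 0.0313). The Ciita/Nlrc5 ratio of FPKM was 0.308, 0.253 and 0.169 for flox 1 to 3, and 0.181, 0.0847 and 0.0702 for LKO 1 to 3. The difference between the responses of these genes was not tested.

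Of 22 transcriptional regulators and interferon signalling genes tested, 0 passed by edgeR in the agreeing libraries and the median was -0.09. Among them 3 had an unadjusted p under 0.05, against 16.6% of all genes tested. Irf1, which carries the interferon gamma signal, was at 0.09. The receptor chain Ifngr2 was at -0.43 (SE 0.13, edgeR adjusted p = 0.186) and the NF-Y subunit gene Nfyb at 0.34 (edgeR adjusted p = 0.265). Ifng itself was at 0 to 0.259 CPM and was not tested. Of 17 interferon gamma induced genes, 1, Ciita, passed as lower, and the median was 0.02. Ubd, which encodes a ubiquitin-like protein, had 14.8, 6.25 and 1.23 CPM in flox 1 to 3 and 5.21, 0.844 and 0.887 CPM in LKO 1 to 3. Among the agreeing libraries it was at -3.59 (SE 0.51, edgeR adjusted p = 0.0554), and it was the 1 gene of its list that passed by title, at -3.15 (edgeR adjusted p = 0.0438). That call was lost without flox 2, flox 3, LKO 2 or LKO 3 (adjusted p = 0.180, 0.1005, 0.113 and 0.219). In the agreeing libraries Ubd passed with DESeq2 (adjusted p = 4.03e-08) and without flox 2, LKO 2 or LKO 3 (edgeR adjusted p = 0.0327, 0.000548 and 0.00139).

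**Figure D4:**
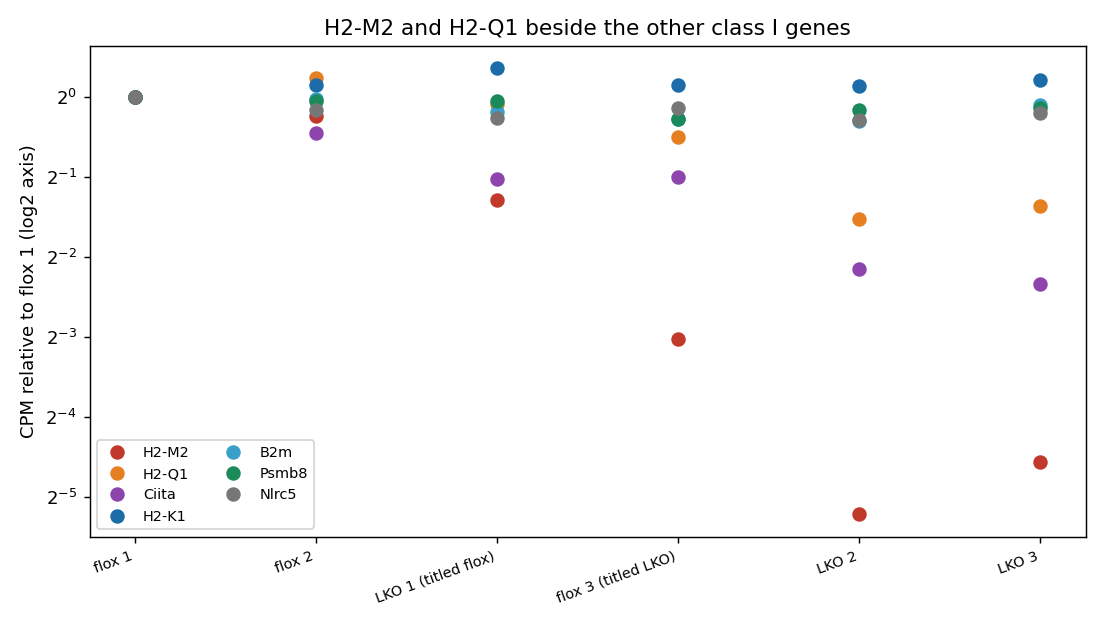
CPM of H2-M2, H2-Q1, Ciita, H2-K1, B2m, Psmb8 and Nlrc5 in each library relative to flox 1, on a log2 axis, with libraries ordered by title. H2-M2, H2-Q1 and Ciita are lowest in LKO 2 and LKO 3, at 0.241 and 0.380 CPM for H2-M2, while H2-K1, B2m, Psmb8 and Nlrc5 stay near their level in flox 1.

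Of 5 tested receptors and readers of class I, 0 passed by edgeR in the agreeing libraries and the median was -0.01. Among them 2 had an unadjusted p under 0.05, against 16.6% of all genes tested. Cd8a, the coreceptor of cytotoxic T cells, had 4.09, 1.73 and 1.30 CPM in flox 1 to 3 and 1.90, 0.844 and 0.760 CPM in LKO 1 to 3. It was at -1.85 on the log2 scale (SE 0.55, edgeR adjusted p = 0.189). Lilrb4a, an inhibitory receptor of myeloid cells, was at -0.82 (edgeR adjusted p = 0.278).

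Of the members, 8 lie on chromosome 17 in a stretch from H2-K1 to H2-M2 (34214991 to 37794443, GRCm39) that holds 174 rows of the table. In the agreeing libraries the median log2 fold change of its 116 tested genes was 0.02. There 7 of them were lower and 1 was higher in LKO, or 6.90%, against 0.622% of all genes tested (0.492% lower, 0.13% higher). The 8 genes were H2-M2, H2-Q1, the class II genes H2-Aa, H2-Ab1, H2-Eb1 and H2-DMb1, the apolipoprotein gene Apom and an unnamed gene. The stretch was set to end at H2-M2, itself among the calls, so its share is not independent of the H2-M2 result. Without flox 1 there were 0 calls over all genes. H2-Aa had 262, 190.1 and 92.1 CPM in flox 1 to 3 and 163, 42.3 and 48.2 CPM in LKO 1 to 3. By title 1 of 115 tested genes, Ubd, passed as lower (0.87%, against 0.356% of all genes), and by genotype field 0 did (0% of all genes). Within the stretch, the gene spans of Tap1 and Psmb9 in the deposited table overlap by 212 bases on opposite strands, whereas their RefSeq starts on GRCm38.p6 lie apart, as given above. H2-T23 lies within the lncRNA gene A930015D03Rik, which was at 0.804 to 2.28 CPM. Tap2 overlaps the lncRNA gene Gm15821, at 0.301 to 0.779 CPM, by 3148 bases. B2m on chromosome 2 lies within Patl2, at no more than 0.247 CPM. Psmb10 on chromosome 8 lies within the lncRNA gene Gm16156, at no more than 0.195 CPM. The strand setting of the counting is not given, so reads in these overlaps cannot be assigned to one gene with certainty.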

How the data were processed

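Poly-A RNA of 6 liver libraries was sequenced after TRIzol extraction and NEBNext Ultra library preparation, per the labels' protocols. The labels do not say that the libraries are from different mice. The p-values then describe only how these samples vary, and that variation may be technical. The authors deposited whole-number counts, not normalized, and FPKM for 23036 genes. The submitters' processing notes name fastp, HISAT, StringTie, Cufflinks, featureCounts and the build GRCm39. For tool versions and roles, gene annotation and strandedness, the sources used here give nothing. Each deposited FPKM equals the count over a fixed gene length and the library total, within 0.0360% over 7260 genes with at least 200 counts in each library.

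Counts were tested with edgeR 4.0.16 (glmQLFit, glmQLFTest, R 4.3.3) after filterByExpr (minimum count 10, total 15) and scaling by TMM. Adjustment was by Benjamini-Hochberg over all genes tested, at a threshold of 0.05. Fold changes are LKO against flox. SE is the log2 fold change divided by the square root of F, and intervals use its degrees of freedom. CPM uses TMM over all 6 libraries. Counts have exact 95% Poisson intervals. A count of 3 corresponds to 0.173 to 0.186 CPM by plain library totals, without TMM scaling. All pairs of libraries differed beyond sampling noise (chi-square per gene 16.0 to 68.7 over 15 pairs).

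Alternatives were median of ratios, upper quartile or plain library-size scaling, filtering at a mean of 1 CPM or not at all, DESeq2 1.42.0, limma-voom and limma-trend (limma 3.58.1) on log2(FPKM + 1) and log2(FPKM + 0.1), and leaving out each library. Named genes were the 10 members, 8 partner genes, the 2 genes of lowest p in each of 6 companion lists, and the 5 genes nearest in pattern to H2-K1, Psmb8 and H2-M2 among genes with a mean of at least 5 CPM. An item that the rule names is not reported here. Hkdc1 and 13 lists of cell type markers served as checks. Genes of the stretch on chromosome 17, the overlapping genes and the markers Themis, Itgax and Cd8b1 were named after their values were seen, and marker sums without their most abundant gene were added then. The members and lists were chosen with earlier results of these data known. Of the listed genes, H2-M11 was not matched and Nrdc was matched by its synonym Nrd1. Promoter sequences and their coordinates are from RefSeq, GRCm38.p6. They are not on the build of the table.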

Additional observations from a re-analysis of the deposited data

How the results depend on the processing

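In the agreeing libraries H2-M2 kept its sign under each of the 13 alternatives, at -5.05 to -2.48 with adjusted p from 1.31e-11 to 0.0897. The number of members called there was 0 to 1 when a library was left out, and by title 1 with no filter, 1 with DESeq2 and 0 to 1 when a library was left out. By title H2-M2 was at -4.41 to -1.98 and by genotype field at -4.21 to -1.33. Over all genes, 91 calls in the agreeing libraries became 57 with upper quartile scaling, 1109 with no filter, 734 with DESeq2, 44 with limma-voom and 0 to 759 when a library was left out, with 0 without flox 1. By title, 51 became 247 with no filter, 25 with a mean of at least 1 CPM, 629 with DESeq2, 24 with limma-voom, 30 with limma-trend on log2(FPKM + 1) and 0 to 239 when a library was left out, with 0 without flox 2. By genotype field, 0 calls (1269 genes at unadjusted p under 0.05) became 35 with DESeq2 and 1 with limma-trend at each pseudocount. The cause was not tested.

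Ciita lost its call in the agreeing libraries with upper quartile scaling (adjusted p = 0.0568), library size alone (0.0515), limma-voom (0.0684) and limma-trend (0.107 and 0.0771). Ubd lost its call by title with library size alone (adjusted p = 0.0592), a mean of at least 1 CPM (0.0528), limma-voom (0.134) and limma-trend with a pseudocount of 1 (0.0802), and gained one in the agreeing libraries with no filter (6.35e-06) and limma-trend with 0.1 (0.0395). Scaling by library size alone moved the median of all genes to -0.131 there, and limma-trend on log2(FPKM + 0.1) to -0.125. Under library size alone and limma-trend at pseudocounts 1 and 0.1, in that order, these values below the threshold changed sign. In the agreeing libraries they were H2-K1 (-0.03 in all 3), Tap2 (-0.11, -0.10, -0.11), Psme1 (-0.07, -0.06, -0.06) and Irf1 (-0.06, -0.02, -0.01). By title they were Psmb5 (-0.04 in all 3), Psmb7 (-0.03 in all 3), Psme1 (-0.07 in all 3), Tapbp (-0.06, -0.07, -0.07) and Irf1 (-0.05, -0.02, -0.02). By genotype field they were Psme1 (-0.02 in all 3) and Irf1 (-0.02 with library size alone). With a library left out, the ranges that crossed 0 in the agreeing libraries were Tap2 -0.07 to 0.10, Psmb5 -0.03 to 0.40, Psme1 -0.03 to 0.18 and Irf1 -0.18 to 0.41. By title they were H2-K1 -0.08 to 0.09, H2-T23 -0.01 to 0.01, Tap2 -0.13 to 0.01, Psmb5 -0.08 to 0.15, Psmb6 -0.03 to 0.23, Psmb7 -0.08 to 0.21, Psme1 -0.01 to 0.10, Tapbp -0.04 to 0.11, Nlrc5 -0.13 to 0.01 and Irf1 -0.11 to 0.16. By genotype field they were Psmb8 -0.08 to 0.06 and Irf1 -0.12 to 0.16. With 4 and 6 counts of H2-M2 in LKO 2 and LKO 3, depth limits how exactly its level there, and so its fold change, is known. No paired analysis was possible because the numbers in the labels are not shared between the groups.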
